A study of Macaca fascicularis with 80 samples.

Results

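A set of 100 genes stood lower than on day 0 on each of the 9 later sampling days in the blood of 8 cynomolgus macaques given IL-15/IL-15Ra. Members were chosen from the counts themselves. Genes with a mean of at least 5 counts-per-million (CPM) over all 80 libraries were kept, log2(CPM + 1) was centred on the median of each library, and the mean of 8 animals on each later day was compared with day 0. Of 9939 kept genes, out of 38550 in the table, 191 (1.92%) were lower by more than 0.15 on the log2 scale on all 9 days, and the 100 with the lowest value on their shallowest day are the members. The 100th member had a shallowest change of -0.207256 and the first gene left out -0.20689. At the threshold, the last gene inside had -0.150537 and the first outside -0.149694. In the mirrored direction, 235 kept genes stood higher on all 9 days.

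The 4 female and 4 male animals were injected with the complex on days 0, 3 and 7, at rising doses of 5, 10 and then 15 µg/kg. Whole blood was drawn into PAXgene tubes on days 0, 1, 3, 4, 7, 8, 10, 14, 17 and 21, with 1 library for each animal and day. Day 0 blood carries a dose of 0 in the labels. Blood of days 3 and 7 carries the earlier dose there, and is read here as drawn before that day's injection. Every animal was dosed, so time, dose and repeated bleeding cannot be told apart. The age of the animals is not given in the sources used here.

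Interleukin 15 is a cytokine that supports survival and division of natural killer cells and memory CD8 T cells. It is presented to these cells by its receptor alpha chain, and the complex of both is a more stable form of the cytokine. Whole blood mixes granulocytes, monocytes, lymphocytes, platelets and red cell precursors, and cytokine treatment can move cells out of the circulation. In such bulk samples, fewer cells of a type and less RNA per cell cannot be told apart. The gene identifiers are not paired with names in the files, and 0 of them matched the name table, so members are described by their courses. The tissue label was not checked against cell type markers for the same reason, and only 3 members are identified.

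Library totals ran from 17.1 M to 80.2 M counts (M, mega), with a median of 24.3 M. Of these, 8 exceeded 40 M: 1 on day 7, 3 on day 8 and 4 on day 10. Another sequencing run tag was carried by 3 libraries of day 10 and 5 of day 14, and 1 library of day 7 (animal 39095) carried another library tag. By root mean square log2 change from the animal's own day 0 over all kept genes, the farthest libraries were day 4 of animal 39102 (1.21), day 8 of animals 39104 and 39102 (1.09 and 1.04) and day 14 of animal 39104 (0.993). The number of genes meeting the rule was 233 without the 5 farthest libraries, of which 97 were members, and 216 without libraries over 40 M, again with 97 members. Without the libraries of another tag, 165 genes met the rule, 87 of them members.

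The members' median stayed below the day 0 line on all 9 later days and was nearest to it on day 1. The median log2 change from day 0 was -0.33 on day 1 and -0.62 on day 3, before the second dose. Day 4 gave -0.63 and day 7 gave -0.74, and after the last dose day 8 gave -0.53 and day 10 the lowest median, -0.96. On day 10, 4 libraries exceeded 40 M counts and 3 others carried another run tag, so animal 39095 alone had neither. In the other animals, day 10 cannot be told apart from depth or run tag. Day 14 stood at -0.72, day 17 at -0.53 and day 21 at -0.58. Over all kept genes the median change lay between -0.02 and 0.00 on every day, which the centring of each library on these genes largely fixes. These differences chose the members and are a description without a test.

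**Figure D1:**
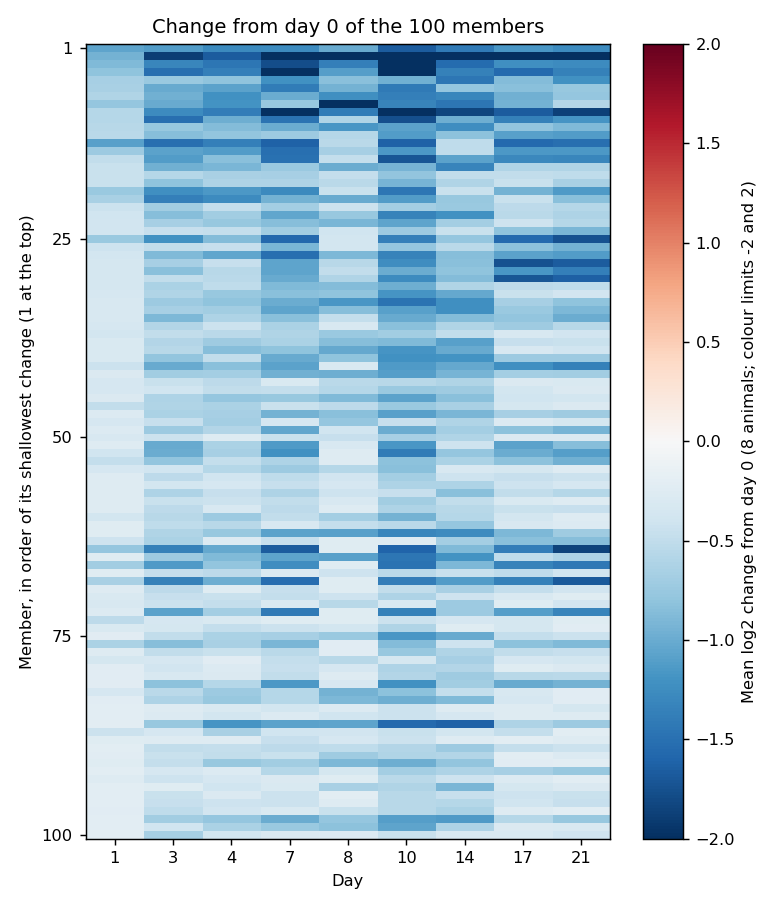
Mean log2 change from day 0 of each of the 100 members (rows, ordered by their shallowest change) on the 9 later days (columns), averaged over 8 animals; blue is lower than day 0. All cells are blue, day 1 is palest for most rows, and day 10, with a median of -0.96, is darkest.

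Members differed in depth. On their deepest day they lay between -3.22 and -0.42, with a median of -0.99, and 50 of 100 were more than 2-fold lower on that day. The deepest day was day 10 for 53 members, day 14 for 20 and day 21 for 10. The shallowest day was day 1 for 56 members, day 8 for 20 and day 21 for 13. A single member was more than 2-fold lower on all 9 days. By day 21, 32 members had a change under 0.5 times their deepest one. All 100 members passed the low-count filter used for the tests below.

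The share of sequencing counts taken by the members was lower on the later days, with another order of days. The rule chose the members by the CPM of the same libraries, which largely fixes a lower sum. The sums are therefore a description without a test. Their summed level on day 0 was between 6775 and 8989 CPM, with a median of 8126. Day 1 libraries ranged from 5525 to 7341 CPM (median 6245), and day 10 libraries from 3846 to 5107 CPM (median 4436). Day 3 had a median of 5186 CPM and day 4 one of 5067. The median sum was higher on day 7 (5375 CPM) than on days 4 and 8 (5046 CPM on day 8), whereas the median change of single members was lower on day 7 than on both. Day 14 had a median of 4647 CPM and the lowest mean of all days (4369 CPM, against 4466 on day 10), and day 17 a median of 5387. On day 21 the range was 4824 to 6344 CPM, with a median of 5848. The ranges of days 1, 3 and 17, which reached 7341, 6926 and 7179 CPM, overlapped that of day 0, and those of the other 6 days lay wholly below it.

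Animals shared the direction but not every gene. On day 10, 88 members were below the animal's own day 0 in 8 of 8 animals, where 10.8% of kept genes were, and on day 1 this held for 26 members against 3.31%. The other days lay between: 71 members on day 3 (6.36% of kept genes), 42 on day 4 (5.17%), 67 on day 7 (7.82%) and 33 on day 8 (7.16%). After day 10 there were 48 on day 14 (8.16%), 53 on day 17 (10.9%) and 46 on day 21 (11.3%). Separate ranges were rarer: 19 members on day 10 had all 8 libraries below all 8 of day 0 (1.58% of kept genes), and 1 member on day 1 (0.101%). Days 3, 4, 7 and 8 had 5, 2, 5 and 2 such members, against 0.312%, 0.151%, 0.573% and 0.654% of kept genes. Days 14, 17 and 21 had 9, 5 and 4, against 1.90%, 1.12% and 1.28%. No member had separate ranges on all 9 days, and 74 had them on none. Since the rule used these contrasts, the shares are given as background only. Between 56 and 72 of the 72 later libraries of a member were below the own day 0, with a median of 66.

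The spread between animals was wide for the members. On day 0, the median SD over 8 animals of a member's log2 level was 0.52, against 0.25 over kept genes. The members' median SD stayed between 0.44 and 0.59 on all 10 days, while that of kept genes lay between 0.22 and 0.36. The mean CPM of the members over all libraries had a median of 25.4 (5.03 to 716), against 35.9 for kept genes. Deviations from the day means correlated between members with a median r of 0.12 over 4950 gene pairs and 80 libraries, and 18.7% of pairs had an r above 0.5. Over all kept genes the median r was 0.00 and 8.33% of pairs were above 0.5. The 80 libraries are 10 days of the same 8 animals, so lasting differences between animals enter these correlations. They also share libraries and depth, and are a description.

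All 9 changes share the same day 0 libraries. The rule was also run in 7 animals at a time, and the resulting 100 genes were measured in the animal left out, whose libraries entered only the CPM filter. The 8 sets shared 69 to 84 genes with the members. In the animals left out, day 1 gave a mean log2 change of -0.28 ± 0.15 (SD, n = 8) and day 3 one of -0.63 ± 0.20. Day 10 gave -0.85 ± 0.14 and day 21 gave -0.61 ± 0.15. It was below 0 in 8 of 8 animals on each of the 9 days, and the value nearest to 0 was -0.06, in animal 39097 on day 8. Of the 100 genes in a set, 29 to 82 were below day 0 on all 9 days in the animal left out, whereas 5.61% to 20.5% of kept genes were. Within an animal, the 9 days still share 1 day 0 library.

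**Figure D2:**
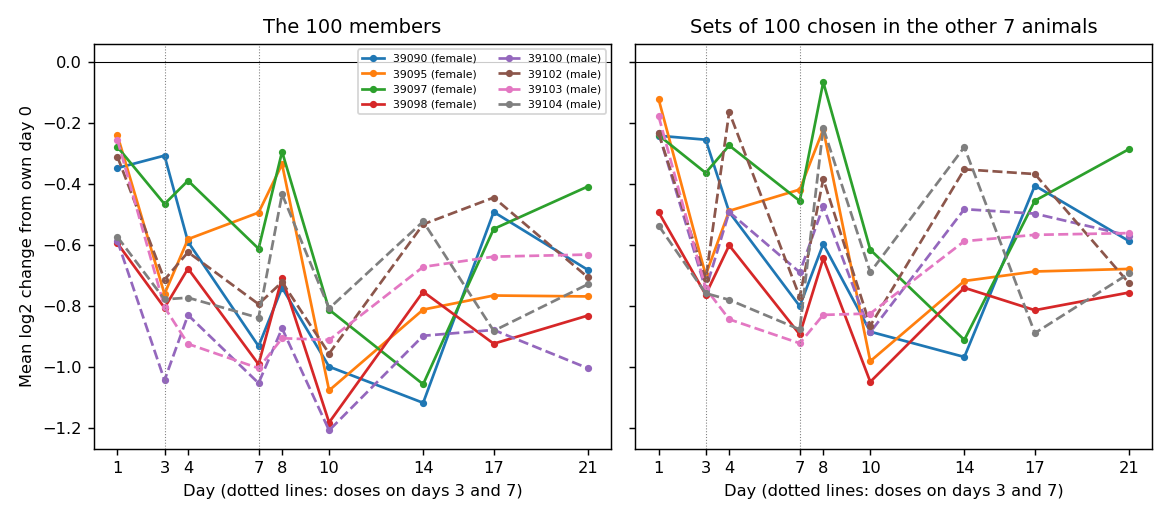
Mean log2 change from the animal's own day 0 (vertical axis) by day (horizontal axis) for each of 8 animals, for the 100 members (left) and for sets of 100 genes chosen in the other 7 animals and measured in the animal left out (right); solid lines are females, dashed lines males. Every point lies below 0 in both panels, with the lowest mean on day 10 (-0.99 on the left and -0.85 on the right).

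By animal, the mean of the members over 9 days ran from -0.54 in female 39097 to -0.93 in male 39100. On day 10 it lay between -1.21 and -0.81 in all 8 animals, and on day 1 between -0.59 and -0.24. Animals 39098, 39100 and 39104 were the lowest on day 1, at -0.59, -0.59 and -0.57, and the other 5 lay between -0.35 and -0.24. Female 39098 had 91 members below day 0 on all 9 days, where 16.5% of kept genes were. Females 39090, 39095 and 39097 had 68, 67 and 47 members, against 8.92%, 5.61% and 10.1%. Males 39100, 39102, 39103 and 39104 had 74, 48, 55 and 46, against 20.5%, 8.98%, 6.61% and 6.95%. For 3 members this held in all 8 animals, and 28 members had it in 5 animals, the most frequent number. On day 14 the members' mean moved with the run tag: the 5 libraries of another tag stood at -1.12, -0.81, -1.06, -0.75 and -0.90 (animals 39090, 39095, 39097, 39098 and 39100), all lower than the 3 of the shared tag, at -0.53, -0.67 and -0.52 (39102, 39103 and 39104). On day 10, where the other tag lay on animals 39102, 39103 and 39104, these stood at -0.95, -0.91 and -0.81, within the range of the other 5. Tag and animal cannot be told apart within a day. Sex was not balanced over the tags either: on day 14 the other tag lay on all 4 females and male 39100, and on day 10 on males only.

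ENSMFAG00000062412 had the lowest shallowest change of all members. Its level on day 0 was between 5.78 and 31.8 CPM over 8 animals, with a median of 11.3. On day 1 it was between 2.94 and 14.4 CPM (median 4.61), on day 10 between 1.42 and 9.07 CPM (median 2.68), and on day 21 between 2.34 and 13.6 CPM (median 3.96). Each animal was below its own day 0 on each of the 9 days, but the ranges of all 9 days overlapped that of day 0. Animals 39090 or 39098 had the highest value on every day. Day 1 had a mean change of -1.05 ± 0.70 (SD, n = 8), day 10 one of -1.66 ± 0.60 and day 21 one of -1.26 ± 0.67.

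ENSMFAG00000020302 had the deepest mean change of the members. Day 0 values were between 3.52 and 98.3 CPM, with a median of 32.5, and the medians were 14.2 CPM on day 1 and 5.76 CPM on day 3. The median was 7.65 CPM on day 4 and 3.20 CPM on day 7, then 5.09 CPM on day 8 and 1.86 CPM on day 10. Levels on day 10 were between 0.132 and 8.39 CPM, and those of day 21 between 0.609 and 30.6 CPM, with a median of 8.97. The median was thus lower on day 3 than on day 1 and lower on day 10 than on day 8. Day 0 and day 10 overlapped only through animal 39097, the lowest of day 0, since the next lowest day 0 value was 15.4 CPM. Its mean change was -0.94 ± 0.68 (SD, n = 8) on day 1, and it was -3.22 ± 0.80 by day 10 and -2.09 ± 0.92 by day 21.

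**Figure D3:**
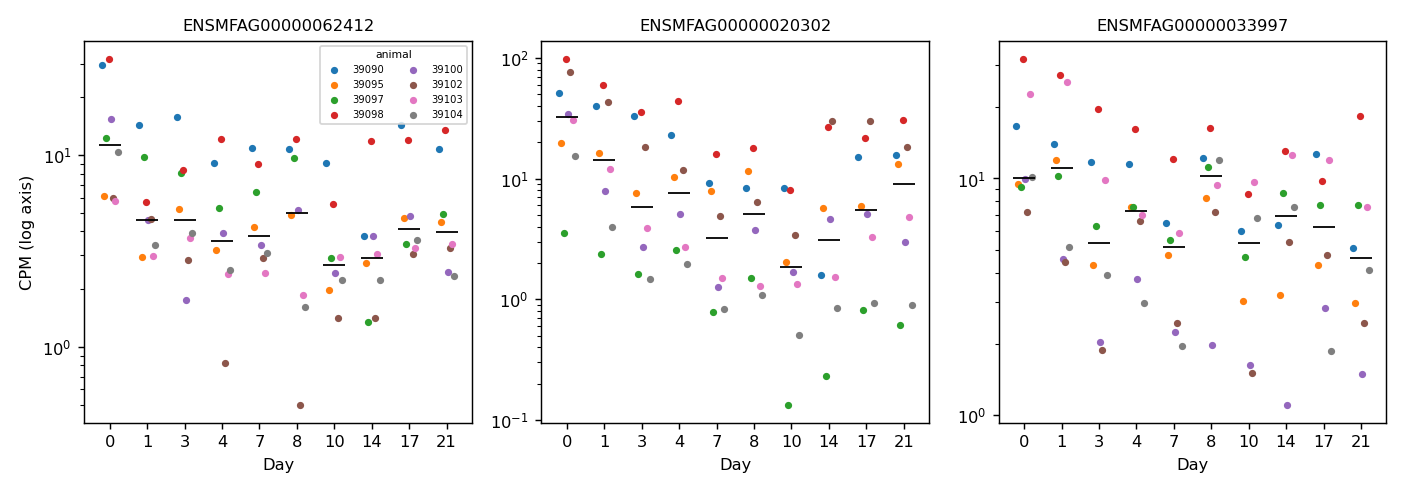
Level in CPM (log axis) of the 3 identified members in each of the 80 libraries by day; points are animals and black bars the median of 8. The median of ENSMFAG00000020302 falls from 32.5 CPM on day 0 to 1.86 CPM on day 10 and stands at 8.97 CPM on day 21. For all 3 genes, the range of every later day overlaps that of day 0.

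ENSMFAG00000033997 was rank 72 among the members, with its smallest changes on days 1 and 8, at -0.28 and -0.24. Its medians were 10.0 CPM on day 0 (7.21 to 32.02) and 11.1 CPM on day 1 (4.45 to 27.3), and 5.32 CPM on day 3 (1.89 to 19.6). On day 7 the median was 5.14 CPM (1.96 to 12.1), on day 8 it was 10.2 CPM (1.97 to 16.4) and on day 10 it was 5.33 CPM (1.503 to 9.68). Only 5 of 8 animals were below their own day 0 on days 1 and 8, against 8 of 8 on days 3, 7 and 10. The value of 1.97 CPM on day 8 came from animal 39100, below the other 7.

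Differences between later days were tested with edgeR, with animal as a block and p-values adjusted over 16054 genes. The rule did not compare later days with each other, but it used the level of both days of each pair. The replicate is the animal. The same libraries had chosen the members, and both days of each pair had to lie below day 0, with day 1 the shallowest for 56 members. For those 56, a lower mean on day 3 than on day 1 follows from that. Member counts set against the background are therefore not independent of the choice, here and in the pairs below. Neighbouring pairs share libraries, so their calls are not independent. From day 1 to day 3, both after the first dose, 26 members fell and 0 rose. The background was 2.70% of all tested genes called lower and 3.32% called higher, or 4.12% and 4.29% of genes with a mean CPM of at least 5. The 26 fell by 0.28 to 1.09 on the log2 scale, with a median of -0.57. Over all 100 members the median change was -0.27, against -0.01 for kept genes, and 97 had a negative value. ENSMFAG00000020302 fell by 1.09 (SE 0.17, edgeR adjusted p = 0.0049) and ENSMFAG00000033997 fell by 0.90 (SE 0.17, adjusted p = 0.0138), each in 8 of 8 animals. ENSMFAG00000062412 had a change of -0.05 (SE 0.20, edgeR adjusted p = 0.92). Leaving out animal 39103 took the count of 26 to 3, animal 39100 to 6, 39098 to 7, 39095 to 8, 39104 to 12 and 39102 to 13, and it was 40 by DESeq2, 1 in a fit over all 80 libraries and 0 without the block. Over all tested genes, the 434 called lower became 87 without 39103 and 91 without 39100. They were 994 by DESeq2, 130 in the fit over all 80 libraries and 0 without the block. In the fit over all 80 libraries the edgeR adjusted p was 0.060 for ENSMFAG00000020302 and 0.080 for ENSMFAG00000033997, whose call was also lost without animal 39103 (0.050062). Without the block both were lost (0.79 and 0.65).

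After the second dose, from day 3 to day 4, edgeR called 0 of 100 members, and DESeq2 called 0 as well. At an unadjusted edgeR p under 0.05 were 5 members and 1762 of the 16054 tested genes. The background was 0.181% called lower and 0% called higher (0.262% and 0% of genes with a mean CPM of at least 5). The median change of the members was 0.02, with 53 of 100 positive, and -0.14 with library totals, which moved the median of all tested genes from -0.01 to -0.18. From day 4 to day 7, ENSMFAG00000020302 was the one member that passed, and fell by 1.48 (SE 0.22, edgeR adjusted p = 0.0056, lower in 8 of 8 animals), where 0.885% of tested genes were called lower and 2.19% higher (1.39% and 2.45% of genes with a mean CPM of at least 5). Its call was lost without the block (edgeR adjusted p = 0.38). The members' median change was -0.17 against -0.02 for kept genes, and it was 0.01 with library totals, where the median of all tested genes moved from 0.03 to 0.22. ENSMFAG00000033997 had a change of -0.85 (SE 0.22, edgeR adjusted p = 0.067), and it passed without animal 39102 or 39103, in the fit over all 80 libraries and by DESeq2 (adjusted p 0.0068 to 0.038). The count of 1 was 7 without animal 39102, 9 without animal 39103, 10 by DESeq2, 9 in the fit over all 80 libraries and 0 without the block. Over all tested genes, the 142 called lower became, in the same order, 271, 508, 650, 953 and 16.

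After the last dose, from day 7 to day 8, 16 members rose and 2 fell, against a background of 6.0% of tested genes called higher and 7.77% called lower. Among genes with a mean CPM of at least 5, these shares were 8.99% and 9.33%. The 16 rose by 0.33 to 1.31, with a median of 0.85. ENSMFAG00000033997 rose by 1.31 (SE 0.33, edgeR adjusted p = 0.036, higher in 8 of 8 animals), the rise for which it was named, so this value describes the choice. ENSMFAG00000020302 rose by 0.80 (SE 0.22, edgeR adjusted p = 0.041, higher in 7 of 8). The number of calls depended on single animals. The 18 became 0 without animal 39095, whose day 7 library carries another library tag, and 1 without 39098. They were 5 without 39102, 6 without 39090 and 7 without 39097 or 39100. Without the block there were 3, where 238 tested genes were called higher and 462 lower. DESeq2 gave 29, where 2519 were called higher and 2024 lower. Without animals with a library over 40 M (1 on day 7, 3 on day 8), 20 members rose and 3 fell. There, 1836 tested genes were called higher and 1106 lower. The sizes moved less: the members' median change was 0.15 without 39095 and 0.16 without 39098, against 0.16 with all 8, while the genes called higher over the whole table went from 964 to 13 and 24. The call of ENSMFAG00000033997 was lost without any 1 of animals 39090, 39095, 39097, 39098 and 39102 (edgeR adjusted p 0.054 to 0.087) and without the block (0.081), and that of ENSMFAG00000020302 without any 1 animal except 39103 (0.054 to 0.098), in the fit over all 80 libraries (0.062), without the block (0.59) and with library totals (0.13). When libraries were scaled by their totals, 10 members were called higher and 9 lower, where 602 of the 16054 tested genes were called higher and 4119 lower, and the median of all tested genes moved from -0.06 to -0.43 while that of the members moved from 0.16 to -0.21. A change of scaling moves members and all tested genes nearly alike, so the gap between them under library totals is not a second result. In the main fit the median of kept genes was 0.01, against 0.16 for the members.

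From day 8 to day 10, 27 members fell and 1 rose, where 5.51% of tested genes were called lower and 5.64% higher (8.26% and 7.20% of genes with a mean CPM of at least 5). The 27 fell by 0.30 to 1.51, with a median of -0.90, and the member that rose changed by 0.97. Over all 100 members the median was -0.30 against 0.01 for kept genes. ENSMFAG00000020302 fell by 1.49 (SE 0.33, edgeR adjusted p = 0.024) and ENSMFAG00000033997 fell by 1.25 (SE 0.26, adjusted p = 0.019), each in 8 of 8 animals; the second gene was named for its rise to day 8, whose libraries this pair shares. ENSMFAG00000062412 was lower in 6 of 8 animals, with a change of -0.68 (SE 0.29, edgeR adjusted p = 0.14), and passed in the fit over all 80 libraries (0.022) and in the 5 animals whose libraries carry the shared run tag (0.0068). Leaving out animal 39095 took the 28 calls to 1, animal 39098 to 5, 39104 to 9, 39100 to 11, 39102 to 15 and 39090 to 18. Over all tested genes, the 884 called lower became 21 without 39095, 132 without 39098 and 180 without 39104. Library totals gave 15, with the median of all tested genes moved from 0.04 to 0.31, and the fit without the block gave 3. In these 2 settings, 477 and 80 of all tested genes were called lower. The calls of ENSMFAG00000020302 and ENSMFAG00000033997 were lost without any 1 of animals 39095, 39098 and 39104 (edgeR adjusted p 0.051 to 0.070) and without the block (0.28 and 0.13). In those 5 animals, of which 4 had a day 10 library over 40 M, 39 members were called, all lower, where 577 of the 16054 tested genes were called higher and 817 lower.

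**Figure D4:**
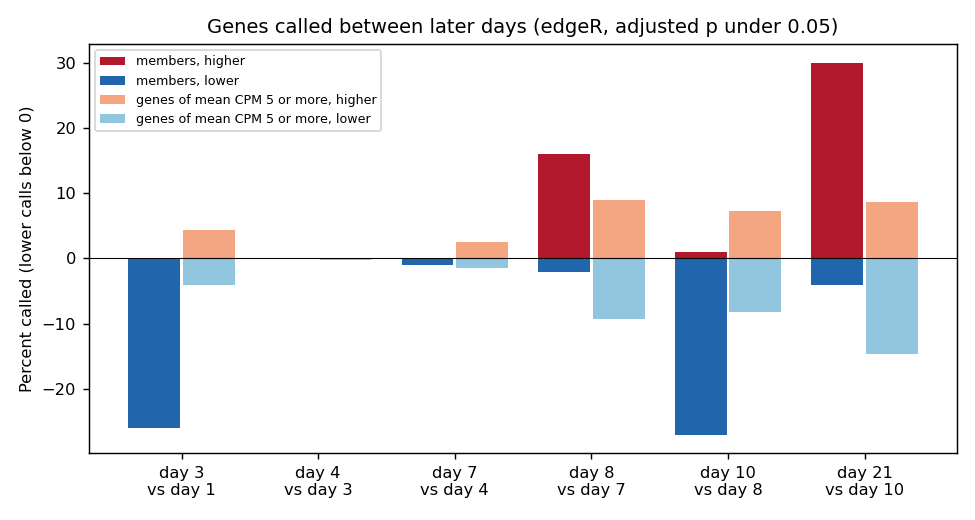
Percent of the 100 members (dark bars) and of genes with a mean CPM of at least 5 (light bars) called higher (above 0) or lower (below 0) in 6 comparisons between later days by edgeR at an adjusted p under 0.05. Members were mostly called lower from day 1 to 3 (26) and day 8 to 10 (27), and mostly higher from day 7 to 8 (16) and day 10 to 21 (30).

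The intervals from day 1 to 3 and from day 8 to 10, each running from the day after a dose to the third day after it, share no library. Of the members that fell, 12 did so in both, which is 46.2% of the 26 and 44.4% of the 27. The overlap was not counted over all kept genes, so it is not given as a trait of the members. Across the 100 members the log2 changes of the intervals had a Pearson r of 0.65, and across all 9939 kept genes an r of 0.70. Genes are not independent replicates, and no p is given.

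**Figure D5:**
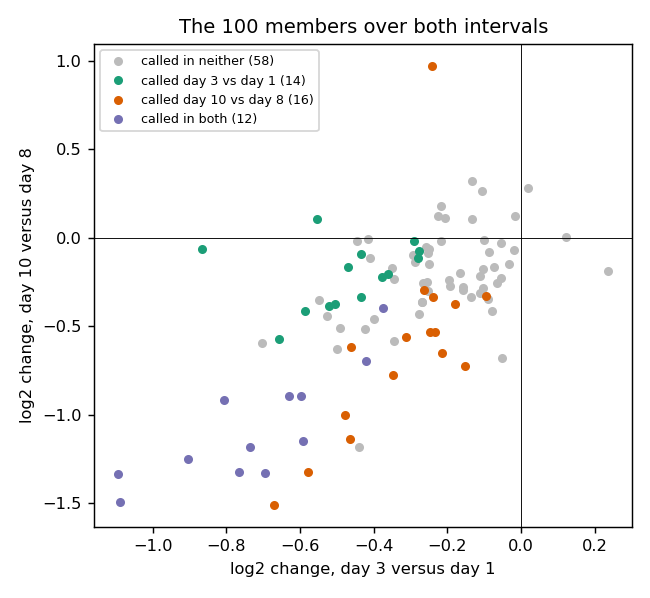
Fitted log2 change of each of the 100 members from day 1 to day 3 (horizontal) and from day 8 to day 10 (vertical), coloured by the edgeR calls. Most points are negative on both axes, as are all 12 members called in both intervals.

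On day 21, after the last dose on day 7, part of the members stood higher than on day 10, the deepest day for 53 members. The median change from day 0 was -0.58 on day 21 and -0.96 on day 10, but -0.53 on days 8 and 17. From day 10 to day 21, 30 members rose and 4 fell, where 6.91% of tested genes were called higher and 10.3% lower (8.66% and 14.6% of genes with a mean CPM of at least 5). The 30 rose by 0.25 to 1.61, with a median of 0.71, and the 4 fell by 0.44 to 0.63. Over all members the median was 0.25 against -0.03 for kept genes, and 80 of 100 were positive. ENSMFAG00000020302 rose by 1.61 (SE 0.24, edgeR adjusted p = 0.0014, higher in 8 of 8 animals), the rise for which it was also named and a call lost without the block (0.23). ENSMFAG00000062412 changed by 0.50 without passing the test (SE 0.20, edgeR adjusted p = 0.10, and 0.039 with library totals), and ENSMFAG00000033997 had a change of 0.00 (SE 0.22, adjusted p = 1.00). The count of 34 stayed between 29 and 34 when any 1 animal was left out, but it was 10, all higher, in the 4 animals without a library over 40 M and 9 without the block. Of these 4 animals, 3 had a day 10 library of another run tag. In the 4 animals, 125 of all tested genes were called higher and 465 lower, and without the block 229 and 669. With library totals, 54 members were called higher and 1 lower, where 2394 of the 16054 tested genes were called higher and 1096 lower, against 1109 and 1655 with TMM factors, and the median of all tested genes moved from 0.01 to 0.14. Over the 6 comparisons, 34 members were called in none, 40 in 1, 14 in 2 and 12 in 3 or more. This tally was not made over all tested genes.

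No member passed a test between the sexes by limma on 1 value per animal. For the change from day 0, the mean of 9 days in 4 females was compared with that in 4 males. Days 10 and 14, on which the run tag was not balanced over the sexes, enter this mean. No member and none of the 16054 tested genes passed an adjusted p of 0.05 (background 0% in both directions). At an unadjusted limma p under 0.05 were 12 of 100 members and 530 of the 16054 tested genes. On day 0 itself, 0 members were called between the sexes, where 0.0187% of tested genes were called higher in females and 0.0934% lower (0.0101% and 0.0805% of genes with a mean CPM of at least 5). There, 8 of 100 members and 1004 of the 16054 tested genes were at an unadjusted limma p under 0.05. The median female minus male difference in change over the members was 0.09. With 4 animals of each sex, smaller differences could have been missed.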

How the data were processed

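Whole-blood RNA of 8 macaques on 10 days gave 80 libraries. Per the labels, the RNAdvance Blood kit was used for RNA and KAPA HyperPrep for mRNA libraries. The authors deposited raw whole-number gene counts, with 38550 genes in the main table and 35432 in a second one, used only for a count of genes. For these tables, not given in the sources used here were the aligner, counter, genome build and strand, so reads shared by overlapping or near-identical genes could not be traced. Columns were matched to samples by library name, and 0 were left unmatched.

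The members, and the lists and tests, were chosen with earlier results of these data known. The 16 gene lists set down for this work need names and could not be used. Named members are the 2 with the lowest shallowest change and the 2 with the largest rise between tested days at adjusted p under 0.05, which makes 3 genes. Genes for tests were kept by filterByExpr grouped by day, which left 16054 (41.6%), and scaled by TMM over all 80 libraries. Day pairs were fitted with edgeR 4.0.16 (glmQLFit, glmQLFTest) in R 4.3.3 and sexes with limma 3.58.1 on log2 CPM (prior count 2), with Benjamini-Hochberg adjustment. DESeq2 1.42.0 was an alternative. Fold changes of the rule are on the log2(CPM + 1) scale, which understates low genes. The fits were tested on simulated data.

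Animal numbers in the labels mark the same animal on each day, which gives the pairing. Deviations from day means had a median r of 0.58 between libraries of 1 animal (lowest -0.44) and -0.08 between animals, and all 80 libraries correlated best with their own animal. Between libraries of a day, chi-square over degrees of freedom was at least 27.7, so none was counted as a repeat. Alternatives covered scaling, filters, pseudocount, threshold, averaging, libraries left out, the second table, the block and the tool.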

Additional observations from a re-analysis of the deposited data

Results flagged for a closer look

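Of 39 groups of 8 animals examined (the members' mean change on 9 days and the levels of 3 members on 10 days), 1 held an animal far from the others, and chance alone puts about 1 in 20 groups there. On day 8, ENSMFAG00000033997 stood at a centred log2 level of -3.62 in animal 39100, while the next lowest animal was at -1.80. The gap was 0.61 of the whole range.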

How the results depend on the processing

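The number of genes under the rule was 191. It stayed between 128 and 285 under 11 alternatives of scaling, filter, pseudocount, averaging, libraries, days and count table, of which 2 (without days 10 and 14, and without the 5 farthest libraries) were chosen after seeing the data, and between 145 and 220 when 1 animal was left out. A threshold of -0.1 gave 348 genes and one of -0.3 gave 40. Calls between later days moved more, among the members and over all tested genes. Counts over all tested genes are given with the comparisons above. Without the replicate block, which ignores the pairing by animal, members called were 0 from day 1 to 3, 0 from day 4 to 7, 3 from day 7 to 8, 3 from day 8 to 10 and 9 from day 10 to 21. DESeq2 called 40 members from day 1 to 3, 10 from day 4 to 7 and 29 from day 7 to 8. One fit over all 80 libraries called 1 from day 1 to 3 and 9 from day 4 to 7, and the absence of a low-count filter gave 40 from day 1 to 3. In that last setting, 906 of 29580 tested genes were called lower. Library totals gave 15 from day 8 to 10 and 55 from day 10 to 21. From day 7 to 8, 0 were called without animal 39095, whose library has another tag, and from day 10 to 21, 10 were called without animals over 40 M counts. The median over animals left 186 genes under the rule, but 69 of the 100 members among them. Leaving out 1 animal gave 3 to 38 calls from day 1 to 3, 0 to 0 from day 3 to 4, 1 to 9 from day 4 to 7, 0 to 19 from day 7 to 8, 1 to 26 from day 8 to 10 and 29 to 34 from day 10 to 21. Sex calls stayed at 0 in every setting. The cause of these shifts was not tested. Where animals were left out, the fits also held fewer animals. Among 328 values of the 3 named genes, which include the main values and means of the 9 changes, 33 calls were lost and 7 gained. No change that was called in the main fit turned its sign. Changes without a call did so at times: that of ENSMFAG00000062412 from day 1 to 3 was -0.05, and 0.12 without animal 39100. From day 7 to 8 it was 0.16, and -0.20 with library totals. Day 8 against day 10 without animals over 40 M counts was not run, since 1 animal remained.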

Other observations

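The second count table of the same libraries, with other gene identifiers, gave 165 genes lower on all 9 days among 9953 kept, and 250 in the mirrored direction. With library totals in place of the median of each library, the main table gave 265 genes below day 0 and 153 above, and with TMM factors 150 and 271. The scaling thus set which direction held more genes, whereas all 100 members met the rule with TMM factors and 89 with library totals. With the median over animals in place of the mean, 69 of the 100 members met it, and with a mean CPM of at least 10, 71 did. From day 7 to 8 the 16 members that rose included 9 of the 26 that fell from day 1 to 3, which is 56.2% of the former and 34.6% of the latter, and these comparisons share no library. This overlap was not counted over all kept genes either. The changes of both comparisons had a Pearson r of -0.55 across the 100 members and -0.57 across all 9939 kept genes, as a description.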
